A study of Mus musculus with 18 samples.

Results

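The genes described here build and serve the lysosome: subunits of the proton pump that acidifies it, the cathepsin proteases that work inside it, its membrane proteins, the Ragulator scaffold on its surface and the Vps proteins that carry cargo to it. Members were taken by name, as every gene named Atp6v0 or Atp6v1, Cts with 1 further letter, Lamp, Lamtor or Vps with a number. Ctsg and Ctsw, which belong to granules of myeloid and cytotoxic cells, were left out, and a mean of at least 5 RPKM (reads per kilobase of gene for every M reads of a library, M being the SI mega) over the 6 columns of values was required. Of 23038 genes in the tables, 74 carried such a name and 53 passed the minimum. The other 21 had a mean of 2.42 RPKM or less, 15 of them under 0.5 RPKM. Just inside the minimum lay Vps8 at a mean of 5.97, Vps18 at 8.40 and Atp6v0a1 at 8.43 RPKM, and just outside it Vps37a at 2.42 and Atp6v1g2 at 2.32 RPKM. Since the minimum is on the mean, 10 of the 53 members are under 5 RPKM in at least 1 column, and 43 are not.

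The values come from haematopoietic stem cells (HSCs) of C57BL/6 mice, sorted from bone marrow as Lineage- Sca1+ cKit+ CD150+ CD48- cells, 3000 per sample. Wild-type mice were compared with Mx1-cre; Mettl3fl/fl mice, in which a floxed Mettl3 gene is deleted by a Cre under the interferon-induced Mx1 promoter, which acts in many blood and some other cells. Both genotypes had received pIpC, an interferon inducer, 5 injections of 10 µg each, with bone marrow taken 10 days afterwards. The study asked which messages carry N6-methyladenosine (m6A) placed by Mettl3, the enzyme that writes this mark as part of a larger complex. Polyadenylated RNA was therefore divided with 1.25 µg of an anti-m6A antibody into m6A-tagged and unbound RNA, beside untreated input, and read as Smart-seq2 libraries of paired 150-base reads. Each of the 6 combinations of genotype and fraction had 3 libraries, 18 in all.

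The files give 1 value per gene for each of the 6 groups, the authors' mean over its 3 libraries. No spread between libraries can be read from them, so every difference below is a description without a test or a replicate check. A fold is on the scale log2((RPKM + 1)/(RPKM + 1)), which understates differences of low genes, and a gene is counted as higher or lower when it differs at least 2-fold. The count over the members in each comparison stands beside the same share over the 8092 genes whose mean passes the same minimum, members included. Depth was worked out from genes without reads, as a harmonic mean of the 3 libraries, taking 1 read to have been added per gene. It was 26.05 to 32.88 M reads in the wild-type groups. In Mettl3-deficient cells it was 16.24 M in input, 15.77 M in unbound and 29.67 M in m6A-tagged RNA. A value of 1 RPKM in Mettl3-deficient input thus stands for about 16.24 reads per kilobase in a library. Mettl3 itself was at 36.4, 33.2 and 36.1 RPKM in wild-type input, unbound and m6A-tagged RNA and at 19.6, 11.2 and 17.4 RPKM in the deficient fractions. Reads over the whole gene do not show how much of the floxed part was lost. All 7 HSC markers were present, and their summed input level was 749 RPKM without and 660 RPKM with the deletion. Granulocyte and monocyte genes summed over 7 markers to 4253.6 RPKM in input of the wild-type and 880 RPKM in that of the deficient cells, and all 7 were lower in the latter.

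As background, the vacuolar proton pump (V-ATPase) has a V1 sector that splits ATP in the cytosol and a V0 sector that carries protons through the membrane. Cathepsins need the acid this pump makes. On the outer face of the lysosome the Ragulator complex anchors the Rag GTPases that bring the growth kinase mTORC1 there, and lysosomal activity and mTORC1 signalling are both tied to the quiescence of HSCs. Vps proteins form the tethers HOPS and CORVET, which join late endosomes, lysosomes and early endosomes, the retromer, which returns receptors from endosomes, the ESCRT complexes, which sort ubiquitylated cargo inward, and the GARP and EARP tethers. Many lysosomal genes carry CLEAR elements, which the factor TFEB binds and whose consensus is the palindrome GTCACGTGAC. Its inner part TCACGTGA is itself a palindrome and contains the shorter E-box CACGTG.

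Promoters are shown because TCACGTGA, the inner part of the CLEAR consensus, is a feature that the naming rule did not use. RefSeq promoter windows of 300 bases (250 before and 50 after the start of transcription, GRCm38.p6, the mm10 family) were at hand for 36 of the 53 members. TCACGTGA was found in 8 of these 36 members (22.2%) and in 154 of 6572 genes tested that have a window (2.34%). Over all 32851 windows it was in 0.974%, and the core CACGTG was in 12 of the 36 members (33.3%) against 12.6% of the tested genes and 7.15% of all windows. The full CLEAR consensus GTCACGTGAC, which contains both, was in 3 of the 36 members (8.33%), 0.806% of the tested genes and 0.326% of all windows. All 3 motifs read the same on both strands, and each longer one is also counted under the shorter. These are matches of letters in a window, and binding was not measured. Each sequence below runs 5′ to 3′ along the gene's strand, with TCACGTGA in capitals and 20 bases on each side of its first copy.
Atp6v1a, chr16:44139364-44139411, minus strand: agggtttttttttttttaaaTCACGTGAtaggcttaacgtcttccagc
Atp6v0d1, chr8:105566041-105566088, minus strand: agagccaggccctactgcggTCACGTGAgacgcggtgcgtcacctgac
Atp6v0e, chr17:26676378-26676425, plus strand: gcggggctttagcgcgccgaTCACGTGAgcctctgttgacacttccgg
Ctsd, chr7:142387899-142387946, minus strand: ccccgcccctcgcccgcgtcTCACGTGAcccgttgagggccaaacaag
Ctsa, chr2:164833740-164833787, plus strand: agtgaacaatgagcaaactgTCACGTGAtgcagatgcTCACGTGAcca
Vps26a, chr10:62486961-62487008, minus strand: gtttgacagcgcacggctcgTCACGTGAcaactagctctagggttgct
Vps33a, chr5:123573017-123573064, minus strand: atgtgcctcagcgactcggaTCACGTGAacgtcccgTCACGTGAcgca
Vps16, chr2:130424281-130424328, plus strand: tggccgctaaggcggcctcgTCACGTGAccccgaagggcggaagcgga

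Ctsa and Vps33a showed a second copy of the palindrome within the printed stretch. Vps26a has a second listed start, whose window holds another copy (chr10:62486723-62486770) with its first base 152 bases before that start. Distances run from the start of transcription used for each window. The first base of the motif lay 4 bases before it in Atp6v0d1, 13 in Ctsa, 19 in Vps16 and 29 in Vps33a. It lay 99 bases before in Ctsd, 132 in Atp6v1a and 183 in Vps26a, and at base 2 after the start in Atp6v0e. In Ctsa, Vps33a and Atp6v1a the start used lies inside the gene's span and is not its outermost end. The 8 genes hold pump subunits of both sectors, an aspartic and a serine protease of the lysosome, a retromer subunit and 2 core subunits of HOPS and CORVET. Their input levels did not move as 1 group between genotypes. The median log2 ratio of Mettl3-deficient to wild-type input was 0.11 over these 8, ranging from -1.37 (Atp6v0d1) to 0.91 (Vps33a). Over the other 45 members it was -0.14, ranging from -1.22 to 0.83. Only 36 members had a promoter window, so these 45 include members that were not searched for the motif. The 2 medians therefore do not compare members with the motif against members shown to lack it.

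In wild-type input the 53 members ran from 6.84 to 364 RPKM with a median of 52.7, against a median of 25.4 RPKM over all genes tested. Cathepsin D, the main aspartic protease of lysosomes, was the highest at 364 RPKM. Behind it came Atp6v1f, a subunit of the rotor stalk, at 225, Vps28 of ESCRT-I at 224 and Ctsz, a carboxypeptidase, at 194 RPKM. Within the pump the 8 V1 members spanned 27.9 (Atp6v1a, the catalytic subunit) to 225 RPKM, and the 6 V0 members 15.1 (Atp6v0a1, a membrane arm isoform) to 146 RPKM (Atp6v0b, of the proton-carrying ring). HOPS and CORVET genes were the lower set, with a median of 29.7 RPKM and values of 6.84 (Vps18) to 69.0 RPKM (Vps16). With no spread over libraries, neighbours in this order cannot be separated. The 8 genes counted here as HOPS and CORVET include Vps33b, a relative of Vps33a that works in another complex. Every count and median given for this set includes it.

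Among pump genes whose names fit the rule, subunits encoded by several genes were carried by few of them. The rule leaves out Tcirg1, a further V0 membrane arm isoform, which was at 59.4 RPKM in wild-type input. Of 13 listed V1 genes 8 were members and of 9 V0 genes 6, and the forms under the minimum had means of 2.32 RPKM or less. The 11 cathepsin members are Ctsa, Ctsb, Ctsc, Ctsd, Ctse, Ctsf, Ctsh, Ctsl, Ctso, Ctss and Ctsz. Atp6v0c-ps2 is a processed pseudogene of the ring subunit gene Atp6v0c and matched by name only. Its level was 13.6 to 15.9% of that of Atp6v0c in 5 columns and 8.0% in Mettl3-deficient m6A-tagged RNA, and reads of the parent gene may be counted there. Vps72, a subunit of nuclear chromatin complexes, also matched by name only and has no known part in sorting.

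**Figure D1:**
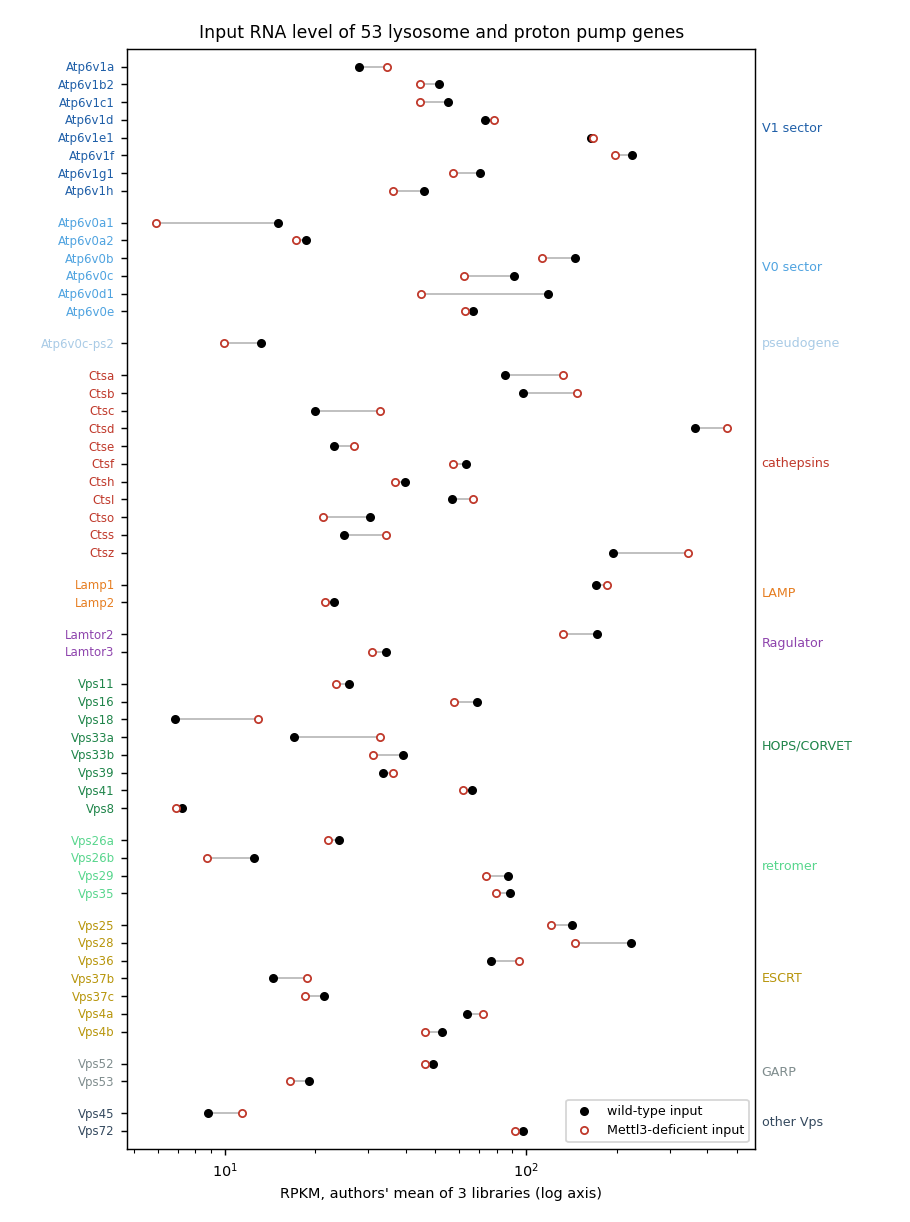
Input level of each of the 53 members (RPKM, the authors' mean of 3 libraries, log axis), in wild-type cells as filled points and in Mettl3-deficient cells as open points, joined by a line and grouped by role. Atp6v0d1 (118 against 44.9) and Atp6v0a1 (15.1 against 5.92) have the longest lines, and 8 of 11 cathepsins have the open point to the right.

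Input RNA of Mettl3-deficient cells differed little from wild-type for most members. No member was 2-fold higher, against 2.27% of all genes tested, and 2 of 53 were 2-fold lower, against 8.42%. The members' median log2 ratio was -0.11 beside -0.08 over all genes, and its SD over members was 0.44 beside 0.71 over all genes. Scaled by median ratios, a common size factor method, 1 member (Vps33a) was higher and 2 lower, against 3.10% and 7.28% of all genes, and the median of all genes moved from -0.08 to 0.02.

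Both lower members are subunits of the V0 sector. Atp6v0d1 (chr8:105524461-105566064), which links the turning ring to the V1 stalk, was at 118, 172 and 100 RPKM in wild-type input, unbound and m6A-tagged RNA and at 44.9, 85.0 and 54.7 RPKM in the Mettl3-deficient fractions. It was lower in all 3 deficient fractions, by 2.59-fold in input (log2 -1.37). Atp6v0a1 (chr11:101009422-101063719) was at 15.1, 12.9 and 8.21 RPKM in the wild-type and 5.92, 2.98 and 5.38 RPKM in the deficient fractions, 2.33-fold lower in input (log2 -1.22). Its low level makes this the less secure of the pair: with 5 RPKM added instead of 1, or with a minimum mean of 20 RPKM, Atp6v0d1 alone is counted.

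The other V0 members lay on the same side with smaller differences. Atp6v0c, the main ring subunit, was at 91.4 in wild-type and 62.3 RPKM in deficient input, Atp6v0b at 146 and 113, Atp6v0a2 at 18.6 and 17.3, and Atp6v0e, a small membrane subunit, at 66.9 and 62.9 RPKM. All 6 V0 members were thus below 0 (median -0.46), whereas 43.1% of all genes were above 0. After median-ratio scaling 2 of the 6 were above 0, and 51.5% of all genes. The V0 arm isoform Tcirg1, not a member, went the other way without scaling (log2 0.41). Its input level rose from 59.4 to 79.2 RPKM with the deletion. The lower side thus held for the 6 members and not for every V0 gene measured. The V1 sector was mixed, with 3 of 8 above 0 and a range from -0.33 (Atp6v1h, a regulatory subunit) to 0.30 (Atp6v1a). A list of 15 other V-ATPase genes holds Tcirg1 beside assembly factors and accessory proteins. Of these 15, 9 were measured, and none was past 2-fold either way (median 0.08, from -0.65 for Rogdi to 0.45 for Ncoa7).

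Cathepsins leaned the other way. Of 11, 8 were higher in deficient input, as were 43.1% of all genes, with a median log2 ratio of 0.35, and none reached 2-fold. After median-ratio scaling 8 were again higher (median 0.45), beside 51.5% of all genes. Ctsz went from 194 RPKM in wild-type to 346 RPKM in deficient input, the largest difference of the group (1.78-fold). Ctsb was at 97.8 and 148, Ctsa at 85.4 and 133, and Ctsd at 364 and 464 RPKM. Ctsc, which activates granule serine proteases in myeloid cells, was at 19.9 and 32.8 RPKM, and Ctss, which trims the invariant chain of MHC class II, at 24.9 and 34.3 RPKM. Ctso (log2 -0.49), Ctsf (-0.14) and Ctsh (-0.11) were on the lower side. Ctsz stood higher in the deficient cells in every fraction, at 156 against 407 RPKM in unbound and 212 against 345 RPKM in m6A-tagged RNA.

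Other lysosomal genes, 61 measured of 69 listed hydrolases, membrane and sorting proteins, had a median of 0.20. Of the 61, 40 were above 0, 3 past 2-fold higher and 2 lower. Over all genes these shares were 43.1%, 2.27% and 8.42%. Cd68, a lysosomal membrane protein abundant in macrophages, was the highest (1.54) and the thioesterase gene Ppt2 the lowest (-1.60). Beside these results, markers of other cells differed between the inputs. Macrophage markers summed over 6 genes to 38.2 and 81.9 RPKM in wild-type and deficient input, with 2 of the 6 higher, and without Cd68, itself a lysosomal gene, to 17.7 and 20.3 RPKM. Over the 6 columns the macrophage sum ran from 32.6 to 61.1 RPKM in wild-type and from 81.9 to 177 RPKM in deficient fractions. Granulocyte and monocyte markers were lower in deficient input, with Mpo at 653 and 62.1 and Elane at 592 and 36.8 RPKM, and ranged from 4253.6 to 6058.7 RPKM in wild-type and from 880 to 1386.6 RPKM in deficient fractions. The 3 megakaryocyte markers summed to 647 and 252 RPKM, the 3 erythroid ones to 87.9 and 17.8, and the 3 B and T cell ones to 8.54 and 0.811 RPKM. Hba-a1 and Cd3e, markers of red cells and T cells, were under 1 RPKM in both inputs. Their part in the cathepsin and V0 differences was not tested. In pooled RNA, a change in the number of cells of a type and a change in RNA per cell cannot be told apart.

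Among the trafficking genes, no member was past 2-fold in input. Lamp1 and Lamp2, the main glycoproteins of the lysosomal membrane, were at 171 and 186 RPKM and at 23.1 and 21.6 RPKM in wild-type and deficient input. The Ragulator subunits Lamtor2 (172 and 133 RPKM) and Lamtor3 (34.4 and 30.9 RPKM) were slightly lower. Vps33a, the SNARE-binding core subunit of HOPS and CORVET, was at 17.0 and 32.8 RPKM and Vps18, another core subunit, at 6.84 and 12.9 RPKM, the highest ratios of the 23 Vps members (0.91 and 0.82). Vps28 of ESCRT-I was at 224 and 145 RPKM and had the lowest (-0.62). All 4 retromer genes were below 0, between -0.47 (Vps26b) and -0.11 (Vps26a), while 43.1% of all genes were above 0. After median-ratio scaling that share was 51.5%, so the side of values near 0 can depend on the scaling. For mTORC1 and TFEB genes, 23 of 34 measured, the median was -0.17, with none higher and 2 lower past 2-fold, from Rragc, a Rag GTPase (-1.45), to the stress sensor Sesn2 (0.99). Other ESCRT genes (19 of 21, median 0.02, 0 higher and 2 lower, Chmp4b lowest at -2.15) and other endosomal sorting genes (29 of 32, median -0.08, 0 higher and 1 lower, Wash lowest at -1.38) were centred near 0. Over all genes tested 2.27% were 2-fold higher and 8.42% 2-fold lower.

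The Ragulator holds 3 further subunits that these tables list under older names, so that the naming rule missed them. Lamtor4 (listed as 0910001L09Rik) was at 76.2, 129 and 91.9 RPKM in wild-type input, unbound and m6A-tagged RNA and at 38.1, 114 and 56.9 RPKM in the deficient fractions, a log2 ratio of -0.98 in input. Lamtor1 (2400001E08Rik), the membrane anchor, was at 75.2 and 57.3 RPKM in the inputs, and Lamtor5 (Hbxip) at 114 and 107 RPKM. All 5 Ragulator genes were therefore lower in deficient input, none past 2-fold, while 43.1% of all genes were above 0. After median-ratio scaling that share was 51.5%. The side of a value as near 0 as that of Lamtor5 (log2 -0.10) can depend on the scaling. In all, 10 genes had a current symbol that fits the rule but an older name in the tables, and 7 of them had a mean of at least 5 RPKM.

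Against input, m6A-tagged RNA of wild-type cells held slightly less of most members. None was 2-fold higher, against 4.44% of all genes, and 2 were 2-fold lower, against 5.07%. The members' median log2 ratio was -0.16 beside 0.09 over all genes (-0.26 beside -0.01 after median-ratio scaling), and 32.1% of members but 55.6% of all genes were above 0. Of the pump subunits 12 of 14 were below 0, with a median of -0.25, and of the 23 Vps members 15, with a median of -0.05. All 8 V1 members were below 0, as were all 4 retromer genes and both Lamp genes (Lamp1 -0.42, Lamp2 -0.66), whereas 6 of 11 cathepsins were above 0 (median 0.10, from -0.59 for Ctsf to 0.50 for Ctsb). The highest members were Vps37b of ESCRT-I (0.93), the ATPase gene Vps4a (0.82) and Vps45 (0.80), a partner of endosomal SNAREs.

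The 2 lower members were Atp6v1h and Vps16, and both were nearer to input without Mettl3. Atp6v1h (chr1:5082978-5163213) encodes subunit H, which regulates ATP hydrolysis by V1. In wild-type cells it was at 45.8 RPKM in input, 77.8 in unbound and 6.5 in m6A-tagged RNA, and in deficient cells at 36.3, 34.4 and 26.4 RPKM. The wild-type m6A-tagged value is far below the other 5. It was 6.23-fold under input in wild-type (log2 -2.64) and 1.36-fold under input in deficient cells (-0.45), a genotype difference of 2.19, or 4.58-fold. Among pump subunits the next genotype difference was 0.89, for Atp6v1b2, the other nucleotide-binding subunit of V1, at -0.73 in wild-type and 0.16 in deficient cells.

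Vps16 (chr2:130424320-130444269), a core subunit of HOPS and CORVET, was at 69.0, 75.9 and 30.8 RPKM in wild-type input, unbound and m6A-tagged RNA. In deficient cells its values were 57.9, 22.1 and 61.6 RPKM. The low value is thus the tagged one in wild-type and the unbound one in deficient cells. Its log2 ratio of tagged to input RNA was -1.14 in wild-type (2.20-fold lower) and 0.09 in deficient cells, a difference of 1.23. Vps16 overlaps Pced1a on the genome, and whether counting used strand is not given in the sources used here. Among the genes under older names, Vps35l (9030624J02Rik), a retromer-like subunit of the Commander complex, had a similar set of values, with 28.6, 38.3 and 7.73 RPKM in the wild-type and 27.7, 21.7 and 33.9 RPKM in the deficient fractions, and was singled out after its values were seen.

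Deficient cells had no member past 2-fold in m6A-tagged against input RNA in either direction, against 1.94% of all genes higher and 1.29% lower. The median was -0.03 beside 0.13 over all genes (-0.17 beside 0.00 after median-ratio scaling), with 45.3% of members and 61.9% of all genes above 0. Members were packed more closely here than in wild-type, with an SD of 0.33 over members against 0.55, as were all genes, with 0.44 against 0.62. The lowest were Atp6v0c-ps2 (-0.81), Lamp2 (-0.55) and Vps8 of CORVET (-0.55), and the highest Vps37c (0.68), Vps72 (0.64) and Vps53 of GARP (0.47).

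The genotype difference of this ratio was past 2-fold upward for 2 of 53 members, Atp6v1h and Vps16 above, against 7.41% of all genes, and past 2-fold downward for none, against 3.84%. Its median over members was 0.08 beside 0.02 over all genes, and became -0.01 after upper-quartile scaling. Pump subunits were above 0 in 9 of 14 (median 0.32) and cathepsins in 3 of 11 (median -0.13), beside 51.3% of all genes. At the lower end were Vps45 (-0.83), Vps4a (-0.80) and Vps4b (-0.51), genes whose tagged to input ratio was lower without Mettl3. In the genotype difference of tagged to unbound RNA Vps4a was also below 0 (-1.88). Vps45 (0.75) and Vps4b (0.56) were above 0 there. Of the other lists, mTORC1 and TFEB genes had 4 of 23 past 2-fold upward and 1 downward (Nprl2 1.60, Wdr24 -1.01) and other lysosomal genes 4 and 2 of 61 (Lgmn, an asparaginyl protease, 3.50, and Scpep1 -1.25).

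**Figure D2:**
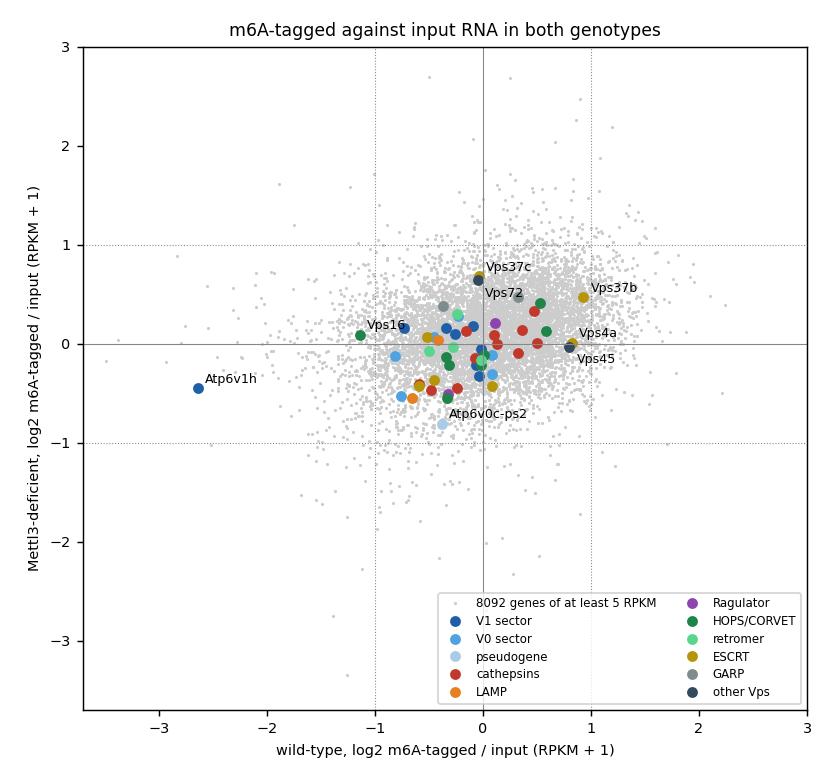
The log2 ratio of m6A-tagged to input RNA (RPKM + 1) in wild-type (horizontal) and Mettl3-deficient cells (vertical), with 8092 genes in grey and the 53 members coloured by role; dotted lines mark 2-fold. Atp6v1h at -2.64 and -0.45 lies far left of the other members, and Vps16 at -1.14 and 0.09 is the only other one past the left dotted line.

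In unbound RNA most pump subunits were above input and most HOPS and CORVET genes below it. Against wild-type input, 1 of 53 members was 2-fold higher, against 3.98% of all genes, and 9 were 2-fold lower, against 31.3%. The median was 0.32 over members and -0.26 over all genes. Median-ratio scaling moves these to 0.59 and 0.01, with 14 members higher and 8 lower, against 13.3% and 26.4% of all genes. Upper-quartile scaling gives 0 higher and 9 lower, against 2.56% and 32.9%. The opposite signs of the medians depend on low genes too: at a minimum mean of 20 RPKM the median was 0.46 over 42 members and 0.15 over 4484 genes, with 1 member higher and 5 lower, against 5.82% and 18.7%.

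Pump subunits were plentiful in unbound RNA of wild-type cells. Of 14, 11 were above 0, as were 41.8% of all genes, with a median of 0.71. After median-ratio scaling 13 were above 0 (median 1.00), beside 50.4% of all genes. Atp6v0b (chr4:117884330-117887333) was at 146 RPKM in input, 302 in unbound and 85.6 in m6A-tagged RNA, the highest ratio to input of the members (1.05). The other ring gene, Atp6v0c, stood at 91.4, 164 and 66.6 RPKM. In both ring genes unbound RNA was the high fraction and m6A-tagged RNA the low one. Lamp2 (0.95), Atp6v1c1 (0.91), a subunit of the stator, and Lamp1 (0.83) were also higher than input, and both Ragulator members were above 0 (Lamtor2 0.57, Lamtor3 0.42).

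HOPS and CORVET genes were scarce there. The median over the 8 was -1.38, beside -0.26 over all genes. Of the 8, 5 were 2-fold lower than input, against 31.3% of all genes: Vps18 (-2.32), Vps33a (-2.21), Vps39 (-1.86), Vps41 (-1.50) and Vps11 (-1.26). After median-ratio scaling the median was -1.11 and 4 were 2-fold lower, against 26.4% of all genes. Vps39 (chr2:120316461-120353142), a HOPS subunit of the late endosome, was at 33.5 RPKM in input, 8.49 in unbound and 50.5 in m6A-tagged RNA. The other 3, Vps8, Vps16 and Vps33b, were at 0.34, 0.13 and 0.07. Vps18 was at 0.573 RPKM in unbound RNA, so its ratio depends on the value added: -3.37 with 0.1 RPKM and -1.09 with 5 RPKM.

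ESCRT members were divided. The ESCRT-I subunits Vps37b (-2.19) and Vps37c (-1.98) and the ATPase Vps4a (-2.00) were low in unbound RNA, whereas Vps25 of ESCRT-II (0.83) and Vps28 of ESCRT-I (0.78) were high. Cathepsins were close to input, with a median of -0.05 and 5 of 11 above 0, apart from Ctso. Ctso (chr3:81932601-81956725), a little-studied cysteine cathepsin, was at 30.3 RPKM in wild-type input, 2.76 in unbound and 42.3 in m6A-tagged RNA, and at 21.2, 7.01 and 26.9 RPKM in the deficient fractions. It was 8.30-fold under input in wild-type unbound RNA (-3.05, or -2.18 with 5 RPKM added), the lowest of the members, and also under input in the deficient cells (-1.47).

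In Mettl3-deficient cells unbound RNA spread the members further in both directions. There 10 of 53 were 2-fold higher than input, against 15.4% of all genes, and 14 were 2-fold lower, against 34.9%. The median was -0.25 beside -0.36 over all genes, and after median-ratio scaling it was 0.14 beside 0.02, with 13 higher and 12 lower, against 24.3% and 27.2%. At a minimum mean of 20 RPKM the members' median lay below that of all genes, at 0.00 beside 0.14.

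Small subunits of the pump reached the highest ratios. Atp6v0b was at 113 RPKM in deficient input, 528 in unbound and 77.9 in m6A-tagged RNA (log2 2.21 for unbound against input, 4.63-fold). Atp6v1f (chr6:29467783-29470509) was at 197, 732 and 190 RPKM there and at 225, 362 and 222 RPKM in wild-type. Atp6v0e (2.07), Atp6v1g1 of the peripheral stalk (1.87) and Atp6v0c (1.55) were likewise higher. Outside the pump the retromer subunit Vps29 (1.94), Lamtor2 (1.62), Vps28 (1.48), Vps25 (1.30) and the pseudogene Atp6v0c-ps2 (1.28) completed the 10. The older-named Ragulator genes Lamtor5 (107 RPKM in input, 337 in unbound) and Lamtor4 (38.1 and 114) lay in the same range.

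Low in deficient unbound RNA were the HOPS and CORVET genes as a set and some of the larger subunits. All 8 genes of this set, Vps33b (-1.40) included, were below 0, whereas 40.3% of all genes were above it. Of the 8, 7 were 2-fold lower, against 34.9% of all genes, with a median of -1.71. After median-ratio scaling 5 of 8 were, against 27.2% of all genes, with a median of -1.37. Vps39 was at 36.2 RPKM in input, 2.61 in unbound and 39.8 in m6A-tagged RNA, the lowest ratio of the members (-3.36, or -2.44 with 5 RPKM added). Atp6v1a (chr16:44085402-44139702) was at 34.6, 4.98 and 29.5 RPKM in deficient cells and at 27.9, 23.3 and 26.7 RPKM in wild-type cells. This catalytic subunit was thus 5.96-fold under input in 1 genotype (-2.57) and close to it in the other (-0.25), opposite in sign to the small pump subunits. Vps41 (-2.31), Vps11 (-2.07) and Vps35, the core of the retromer (-1.98), followed.

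Comparing the genotypes, 21 members were above 0 in unbound against input RNA in both, 18 were below 0 in both, 13 were above in wild-type and below in deficient cells, and 1, Ctsz, was the reverse. Over all genes the shares were 28.9%, 46.8%, 12.9% and 11.4%, beside 39.6%, 34.0%, 24.5% and 1.89% of members. After median-ratio scaling the members' counts were 26, 10, 13 and 4, against 37.2%, 36.3%, 13.2% and 13.3% of all genes. The 5 members 2-fold lower in both were Vps11, Vps18, Vps39, Vps41 and Ctso (9.43%, against 19.7% of all genes), and Vps11 was no longer among them after median-ratio scaling. Among the 13 were Lamp2 (0.95 and -0.72), Ctse (0.24 and -1.49), Vps53 (0.33 and -1.39), Vps33b (0.07 and -1.40), Vps16 (0.13 and -1.35), Vps8 (0.34 and -1.25) and Atp6v1h (0.75 and -0.08). Under median-ratio scaling Atp6v1h, Atp6v1b2 and Ctsd were above 0 in both genotypes, and Atp6v1a, Atp6v0a1 and Ctsl took their place among the 13. Upper-quartile scaling moved Vps33b and Vps26b out of the 13, to below 0 in both, and moved Ctsh, Ctsf and Vps52 in.

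**Figure D3:**
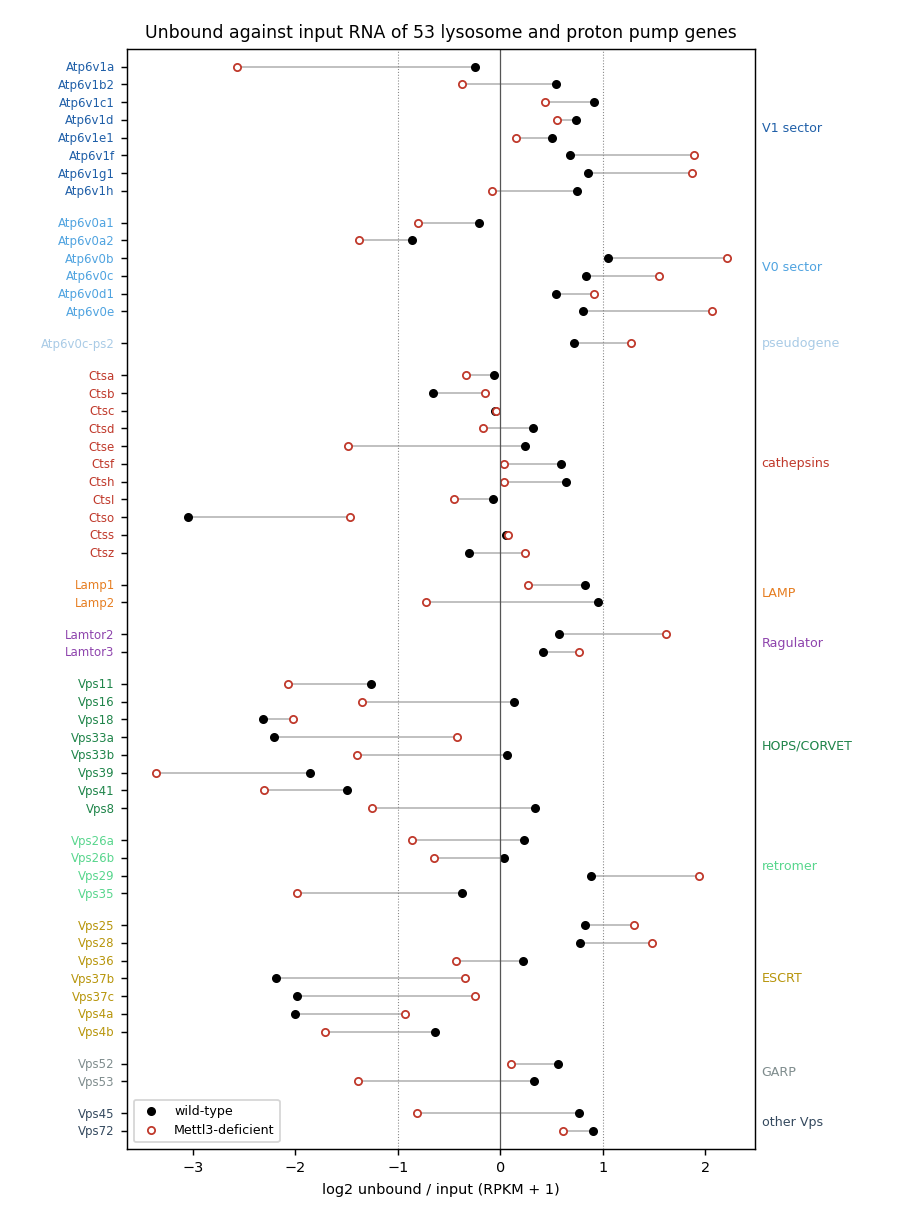
The log2 ratio of unbound to input RNA (RPKM + 1) for each of the 53 members, in wild-type (filled) and Mettl3-deficient cells (open), grouped by role; dotted lines mark 2-fold. The open points of Atp6v0b, Atp6v0e, Vps29, Atp6v1f and Atp6v1g1 lie between 1.87 and 2.21, and those of Vps39 and Atp6v1a at -3.36 and -2.57.

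These ratios went with the length of the gene on the genome. Over the 53 members Spearman's rho between genomic span and the unbound to input ratio was -0.32 in wild-type and -0.59 in deficient cells, and over 8082 genes with a span -0.22 and -0.48. These correlations are across genes of the same pooled columns, which are not independent replicates. For m6A-tagged against input RNA rho was 0.07 in wild-type and -0.09 in deficient cells. In deficient cells the 17 shortest members, spanning 1133 to 11918 bases, had a median unbound to input ratio of 1.28, with 9 past 2-fold higher, whereas all 2912 genes of that span range had a median of 0.40. The 18 of middle span had a median of -0.36 (all genes -0.45), and the 18 longest, from 29620 to 221564 bases, -0.84 (all genes -1.28), with 8 past 2-fold lower. Over all genes of any span 15.4% were past 2-fold higher and 34.9% lower in deficient cells. These shares were not counted within each span range, so the counts of members have no background of like span. In wild-type cells the 3 medians were 0.59, 0.10 and 0.15, beside 0.11, -0.25 and -0.60 over all genes in the same ranges.

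Span did not order every member. Atp6v0e spans 23252 bases and was at 2.07, and Vps18 spans 9712 bases and was at -2.02 in deficient unbound RNA. The length of the messages was not used here, and its part was not tested.

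**Figure D4:**
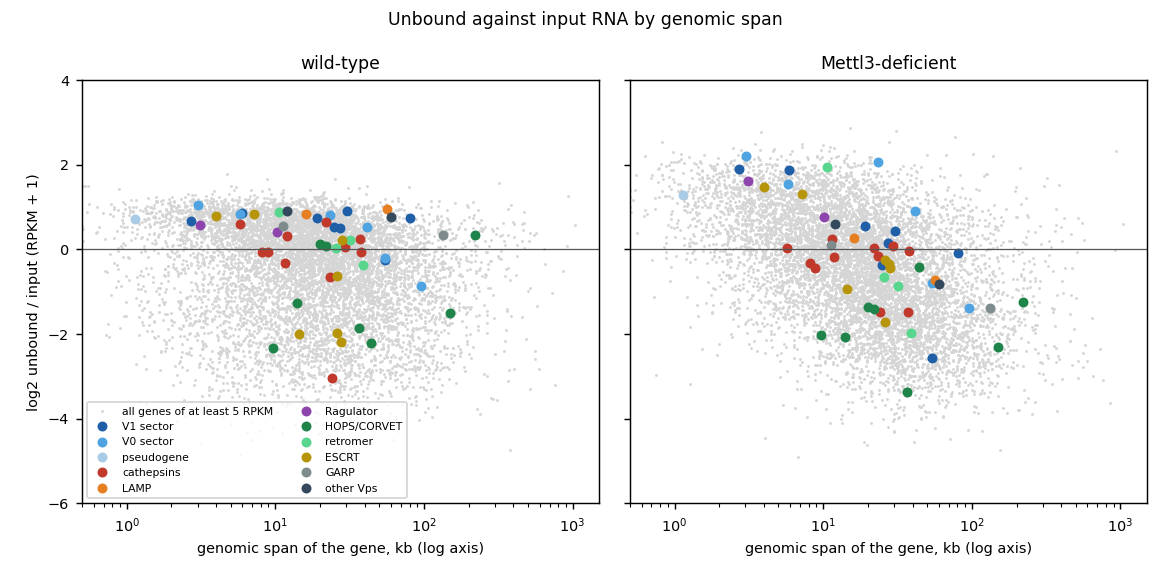
The log2 ratio of unbound to input RNA (RPKM + 1) against genomic span in kilobases (log axis), in wild-type (left) and Mettl3-deficient cells (right), with all genes of at least 5 RPKM in grey and members coloured by role. The members slope downward more in the right panel (rho -0.59) than in the left (rho -0.32).

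The ratio of m6A-tagged to unbound RNA rests on the same columns as the ratios above and adds no separate evidence. In wild-type cells 10 of 53 members were 2-fold higher in tagged RNA, against 36.9% of all genes, and 13 were 2-fold lower, against 16.4%. The median was -0.54 beside 0.36 over all genes, and after median-ratio scaling -0.91 beside -0.01, with 7 higher and 25 lower, against 30.6% and 25.5% of all genes. At a minimum mean of 20 RPKM the medians were -0.72 and -0.18. Ctso (3.52), Vps37b (3.12) and Vps18 (2.85) were highest, and Atp6v1h (-3.39, 10.5-fold), Atp6v0b (-1.81) and Lamp2 (-1.61) lowest. With 5 RPKM added the 3 highest were 2.61, 2.18 and 1.46. Of the pump subunits 12 of 14 were below 0 (median -0.80), while 58.4% of all genes were above 0, and 5 of 8 HOPS and CORVET genes were 2-fold higher (median 1.23).

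Deficient cells had 13 of 53 members 2-fold higher in tagged than in unbound RNA, against 39.6% of all genes, and 11 lower, against 13.9%. The median of 0.17 beside 0.57 over all genes turned to -0.34 beside 0.07 after median-ratio scaling, with 8 higher and 13 lower, against 28.4% and 24.1% of all genes. At a minimum mean of 20 RPKM the members' median was close to that of all genes, at 0.03 beside 0.06. Vps39 (3.50, or 2.56 with 5 RPKM added), Vps18 (2.43) and Atp6v1a (2.35) led, and Atp6v0b (-2.74), Atp6v0e (-2.38) and Atp6v1g1 (-2.20) were lowest. All 8 HOPS and CORVET genes were above 0, beside 65.1% of all genes, and 6 of them 2-fold higher.

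In the genotype difference of tagged to unbound RNA, 16 of 53 members were past 2-fold upward, against 23.2% of all genes, and 8 downward, against 23.1%. The median was 0.46 beside -0.03 over all genes, and median-ratio scaling gave 14 upward and 12 downward, against 20.8% and 26.7% of all genes, with a median of 0.31 beside -0.15. Upper-quartile scaling gave 15 and 10, against 22.3% and 24.0%. Atp6v1h (3.03), Vps16 (2.71) and Atp6v1a (2.16) were highest. For Atp6v1h the wild-type m6A-tagged column is the low one, and for Atp6v1a the deficient unbound column. For Vps16 both are low, with 30.8 RPKM in wild-type m6A-tagged and 22.1 RPKM in deficient unbound RNA. At the other end were Vps37b (-2.31, or -1.50 with 5 RPKM added), Vps33a (-1.98) and Vps4a (-1.88), whose wild-type unbound values were 2.40, 2.89 and 15.2 RPKM.

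Set directly against wild-type, deficient unbound RNA had 10 of 53 members 2-fold higher, against 18.9% of all genes, and 17 lower, against 23.8%. The median was -0.34 beside -0.04, and median-ratio scaling gave 12 and 12, against 24.2% and 20.1% of all genes, with a median of -0.11 beside 0.17 over all genes. Vps33a, at 2.89 RPKM in wild-type, was at 24.2 RPKM in deficient unbound RNA (log2 2.69, or 1.89 with 5 RPKM added), and Vps37b (2.19) and Vps37c (1.52) came next. Atp6v1a (-2.02), Vps53 (-1.91) and Atp6v0a1 (-1.81) were lowest, and Lamp2, at 45.7 and 12.7 RPKM, was 3.40-fold lower. Of the 18 longest members 12 were 2-fold lower (median -1.22, beside -0.59 over all genes of that span). Over all genes of any span 23.8% were, and the share within that span was not counted.

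By contrast, m6A-tagged RNA differed little between genotypes. The single member past 2-fold higher was Atp6v1h, against 5.97% of all genes, at 6.5 against 26.4 RPKM (log2 1.87, 3.65-fold). None was lower, against 9.39% of all genes. After median-ratio scaling 2 were higher, against 7.06% of all genes. The median was 0.00 beside -0.07 over all genes. Next to Atp6v1h came Vps16 (0.98) and Ctsa (0.93), and at the lower end Atp6v0d1 (-0.86), Atp6v0c-ps2 (-0.81) and Vps4b (-0.69). All 6 V0 members were below 0 (median -0.38), whereas the V0 isoform Tcirg1, not a member, was at 1.00. The cathepsins were above 0 in 9 of 11 (median 0.22), beside 46.0% of all genes above 0.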

How the data were processed

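The authors deposited 2 tables, 1 per genotype, each with 3 RPKM columns for input, unbound and m6A-tagged RNA. Each column is the authors' mean of 3 libraries, and 1 read was taken to have been added per gene in each. The values of genes without reads do not settle that count, and another one would rescale the depths given here. Per the submitters' processing notes the build was mm10 and the tools included Picard and edgeR, in roles and versions left unstated. Neither aligner nor counter is given in the sources used here. Tables were joined on gene ID (23038 genes, 25 of whose names differed between them, and 11 rows without a gene left out). RefSeq GRCm38.p6 gave coordinates, current symbols (22959 matched) and promoter windows. With 1 pooled column per group the planned limma fit could not be run, so ratios are described over 11 comparisons with no test. Of the members, 20 overlap another annotated gene, 9 of them a protein-coding one (Atp6v1b2, Ctsa, Ctsb, Ctsz, Vps16, Vps26b, Vps29, Vps36, Vps72), so their values are less certain.

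Members and gene lists were chosen with earlier results of these data known. The text names the 3 highest and 3 lowest members of a comparison, each role's extremes, members past 2-fold in the input and tagged to input genotype comparisons, and any pump, cathepsin, Lamp or Lamtor gene. Other Vps genes, Cd68 and genes under older names were named after their values were seen. Ratio code was tested on simulated data. Python 3.11.15, pandas 2.3.3, numpy 2.4.6, SciPy 1.17.1 and matplotlib 3.10.9 were used.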

Additional observations from a re-analysis of the deposited data

How the results depend on the processing

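Alternatives were 0.1 or 5 RPKM added, median-ratio or upper-quartile scaling, and a minimum of 20 RPKM (42 members of 4484 genes) or none (74 of 23038). Of 132 counts of members recomputed, 120 stayed within 1.5 times. With 5 RPKM added, 1 member was lower in deficient against wild-type input and 11 in unbound RNA. Median-ratio scaling gave 25 lower in wild-type tagged against unbound RNA, 8 higher in the deficient one, 14 higher in wild-type unbound against input, 1 higher in deficient against wild-type input and 2 higher in tagged RNA. Upper-quartile scaling gave 0 higher in wild-type unbound against input. At a minimum of 20 RPKM, 6 were higher in wild-type tagged against unbound RNA, 5 lower in wild-type and 9 lower in deficient unbound against input, and 1 lower in deficient against wild-type input. The cause was not tested, except that fewer genes remain at the higher minimum. Of 164 values of named genes, 19 differed by more than 1.5-fold with 5 RPKM added, 3 (all Vps18) with 0.1 RPKM, and none under either scaling. No paired analysis was possible because each group has 1 pooled column, and for the same reason leaving out single replicates was not run. The pooled columns give no spread between libraries. Depth is lower in deficient input and unbound RNA, and 5 members in wild-type and 6 in deficient unbound RNA are under 5 RPKM.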
